A study of Mus musculus with 3 samples.

Results

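Solute carrier genes were taken as every ChIP-seq peak whose assigned gene symbol began with Slc and a number, or with Slco, whatever its class. This gave 48 peaks of 2127, on 43 genes of 1817. BMAL1 only peaks were found at 28 of these genes, CLK only peaks at 11 and a CLK and a BMAL1 peak at the same site at 7. By BMAL1 peak score the strongest solute carrier sites were at Slc27a2, Slc7a10, Slc2a5, Slc20a1 and Slc7a2. By CLK peak score they were at Slc2a5 and Slc46a3. Binding was measured in the liver of wild-type male C57BL/6 mice, adults of 3 to 6 months. The mice were kept in a cycle of 12 h light and 12 h dark for at least 2 weeks. They were killed at ZT8, 8 h after lights on. One library was immunoprecipitated with an antibody against CLK (CLOCK) and one with an antibody against BMAL1, and the third, the Input, was sequenced without antibody from the same liver extract. The CLK library held 37371047 mapped tags, the BMAL1 library 28920754 and the Input 18846303. Each group was 1 library, so no value has a replicate, and no difference was tested.

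The solute carriers are a large superfamily of membrane proteins that move sugars, amino acids, fatty acids, ions, vitamins, drugs and metabolites across the plasma membrane and the membranes of mitochondria and other organelles. In the liver they set what a hepatocyte takes up from the blood, exchanges between cytosol and mitochondria and exports. CLK and BMAL1 form the heterodimer that drives the positive limb of the circadian clock, and its best known binding site is the e-box, the palindromic hexamer CACGTG.

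The e-boxes found within 100 bp of the summit of 13 solute carrier peaks are shown first, since the values below return to them. The e-box of a further peak, at Slc26a2, is not printed. Each line is mm9 sequence of the plus strand, with CACGTG in capitals. Stretches that would have touched an annotated untranslated region were kept to 30 bases. The first 3 sequences lie in sites with a CLK and a BMAL1 peak, the last in a CLK only peak, and all others in BMAL1 only peaks.
Slc2a5, chr4:149506838-149506923: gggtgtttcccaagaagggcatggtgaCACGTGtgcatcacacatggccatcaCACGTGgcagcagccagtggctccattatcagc
Slc25a33, chr4:149166466-149166525: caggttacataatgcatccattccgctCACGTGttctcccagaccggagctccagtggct
Slc25a39, chr11:102269879-102269938: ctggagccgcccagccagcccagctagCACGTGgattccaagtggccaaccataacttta
Slc7a10, chr7:35954508-35954567: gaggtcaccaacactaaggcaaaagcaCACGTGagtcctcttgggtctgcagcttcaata
Slc20a1, chr2:129024047-129024106: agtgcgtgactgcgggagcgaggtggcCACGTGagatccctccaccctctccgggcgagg
Slc7a2, chr8:41947496-41947555: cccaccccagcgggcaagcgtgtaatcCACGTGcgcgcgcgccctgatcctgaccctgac
Slc25a22, chr7:148623149-148623281: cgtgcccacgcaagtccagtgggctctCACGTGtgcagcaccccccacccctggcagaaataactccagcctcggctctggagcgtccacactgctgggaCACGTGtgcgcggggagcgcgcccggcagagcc
Slc17a9, chr2:180459977-180460006: cactgggactgaCACGTGgacttgggcggt
Slc10a3, chrX:71618749-71618808: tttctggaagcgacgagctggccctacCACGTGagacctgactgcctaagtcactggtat
Slc5a6, chr5:31350359-31350388: cccttctctccgCACGTGgcgaacccacga
Slc25a13, chr6:6167266-6167325: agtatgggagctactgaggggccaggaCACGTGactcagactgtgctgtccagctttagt
Slc16a1, chr3:104443096-104443155: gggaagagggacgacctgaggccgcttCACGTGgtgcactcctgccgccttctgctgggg
Slc25a25, chr2:32275935-32275994: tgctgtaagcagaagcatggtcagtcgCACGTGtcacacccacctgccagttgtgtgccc

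The other 4 shared sites held no CACGTG within 100 bp of the summit. They are shown because they carry both factors, with the hexamers that differ from CACGTG at 1 base in capitals, again on the plus strand of mm9. At Slc27a2 the stretch is the closest pair of the 4 such hexamers in the window, and at the others it surrounds the hexamer nearest the summit.
Slc27a2, chr2:126378667-126378696: tgagcgCACGAGgagcccCACGAGggggcg
Slc45a1, chr4:150059187-150059246: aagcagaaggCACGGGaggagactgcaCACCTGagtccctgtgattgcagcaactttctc
Slc22a16, chr10:40219780-40219839: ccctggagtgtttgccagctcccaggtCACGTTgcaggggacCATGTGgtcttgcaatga
Slco1a4, chr6:141723138-141723197: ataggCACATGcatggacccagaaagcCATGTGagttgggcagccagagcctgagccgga

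The first question was which factor was found at solute carrier genes. Of the 48 peaks, 29 were BMAL1 only (60.4%, exact 95% interval 45.3 to 74.2), against 64.3% of all 2127 peaks. A further 12 were CLK only (25%, 13.6 to 39.6), against 25.8% of all. The remaining 7 were CLK:BMAL1, where peaks of both lists share at least 1 bp (14.6%, 6.07 to 27.8), against 9.92% of all. The share over all peaks lay within the interval for each of the 3 classes. These intervals describe counting error alone, and reads amplified by PCR are not independent molecules. The 7 shared peaks were 36.8% of the 19 solute carrier peaks in the CLK list and 19.4% of the 36 in the BMAL1 list, beside 27.8% and 13.4% over the full lists. The 13.4% sets the 211 shared sites, counted by CLK position, against the 1578 BMAL1 peaks. At Nr1d1 more than 1 of these sites was joined to the same BMAL1 peak. Both lists were called against the same Input. A gene without a peak in one list is not shown to lack that factor, because the lists hold only regions that passed the calling cutoff.

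The 43 genes were 11.7% of the 368 annotated solute carrier genes, and 6.7% of all 22238 annotated protein-coding genes had a peak. All 43 solute carrier symbols were annotated, but only 1489 of the 1817 symbols over all peaks were annotated protein-coding genes. A gene listed under a name that the annotation lacks was therefore not counted in the share of all genes. Counting only peaks in the gene or within 10000 bp of its start, 30 solute carrier genes (8.15%) and 4.59% of all genes remained. Gene length differed between these sets. The median annotated solute carrier gene was 29.5 kb long and the median protein-coding gene 15.4 kb. Among genes with a peak the medians were 30.2 kb for solute carriers and 46.6 kb for all protein-coding genes. The part of length in these shares was not tested.

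The peaks fell on 25 of 48 families, and families were grouped by what they carry. Each gene was counted in the group of its family, also where its own function differs, as for Slc5a6, Slc6a4 and Slc26a5 described below. Organic ion carriers, mitochondrial carriers and inorganic ion carriers had the most peaks, with 9 each. Over all 2127 peaks, 64.3% were BMAL1 only, 25.8% CLK only and 9.92% shared. All 9 peaks of the inorganic ion carriers, on 8 of 57 genes, were BMAL1 only. The mitochondrial carriers, the Slc25 family, held 2 shared, 3 BMAL1 only and 4 CLK only peaks on 7 of 44 genes. Of these CLK only peaks, 2 were at Slc25a25. The organic ion carriers held 2 shared, 6 BMAL1 only and 1 CLK only peak on 9 of 84 genes.

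Sugar carrier families had 6 peaks on 5 of 34 genes, and 2 of the peaks were shared. Among the 6 were the 2 peaks of Slc5a6, a transporter of biotin and pantothenate. Amino acid carrier families also had 6 peaks, on 6 of 63 genes, with 5 BMAL1 only, 1 CLK only and none shared. The fatty acid transport proteins of the Slc27 family, with the fewest annotated genes of these groups, had 3 peaks on 2 of 6 genes. Metal carriers had a peak on 2 of 32 genes and the carriers of nucleosides and nucleotide sugars on 2 of 30, both CLK only. Families outside these groups had a peak on 2 of 18 genes. With so few peaks per group, the order of the groups is a description of these lists.

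**Figure D1:**
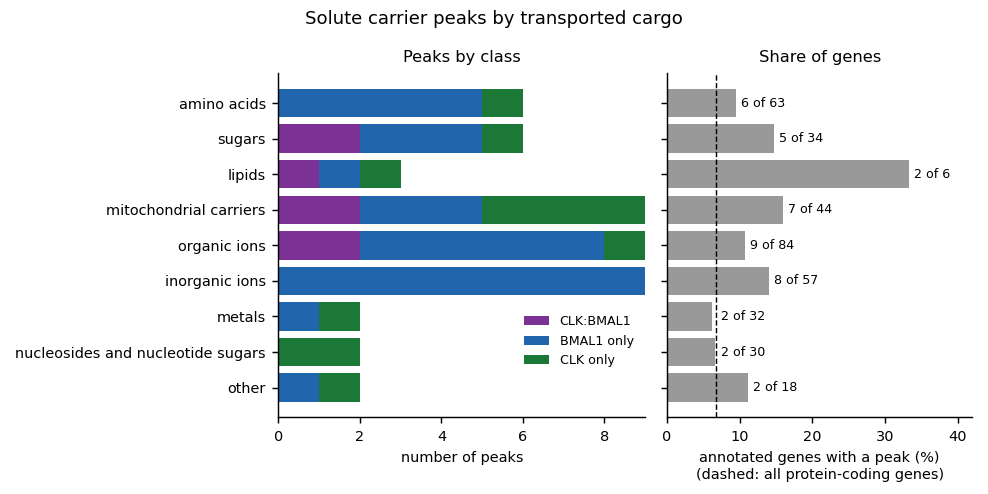
Solute carrier peaks by the cargo of their family: the left bars count peaks, stacked by class (CLK:BMAL1, BMAL1 only, CLK only), and the right bars give the percentage of annotated genes with a peak, with the dashed line at the 6.7% of all protein-coding genes. That 6.7% does not count genes listed under names that the annotation lacks. The inorganic ion bar is BMAL1 only throughout, and the right-hand bars rest on between 2 and 9 genes each. The mitochondrial bar holds the most CLK only peaks, 4, of which 2 are at Slc25a25. Over all peaks, 64.3% were BMAL1 only and 25.8% CLK only.

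The strength of a peak was read from its MACS score, which is 10 times the negative log10 of the p-value with a cutoff at 50, and from its fold enrichment over the local Input. Solute carrier peaks were about as strong as the average peak of each list. In the BMAL1 list their median fold enrichment was 7.05, from 5.01 at Slc25a13 to 15.53 at Slc2a5, and the median of all BMAL1 peaks was 6.80. Their median score was 63.0 against 59.5. In the CLK list the median fold enrichment was 6.35, from 3.98 at Slc43a1 to 11.16 at Slc2a5, and the median of all CLK peaks was also 6.35.

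A score of at least 100 was reached by 5 of 36 BMAL1 peaks (13.9%), against 14.8% of the whole BMAL1 list, and by 2 of 19 CLK peaks (10.5%), against 12.4% of the CLK list. FDRs of 5% or less were found for 20 of 36 BMAL1 peaks (55.6%), against 47.7% of that list, and to 5 of 19 CLK peaks (26.3%), against 21.3%. In the CLK list the FDR carried little information on rank, since it lay between 4.65% and 6.52% for all 19 peaks, while in the BMAL1 list it ran from 0 to 10.65%.

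**Figure D2:**
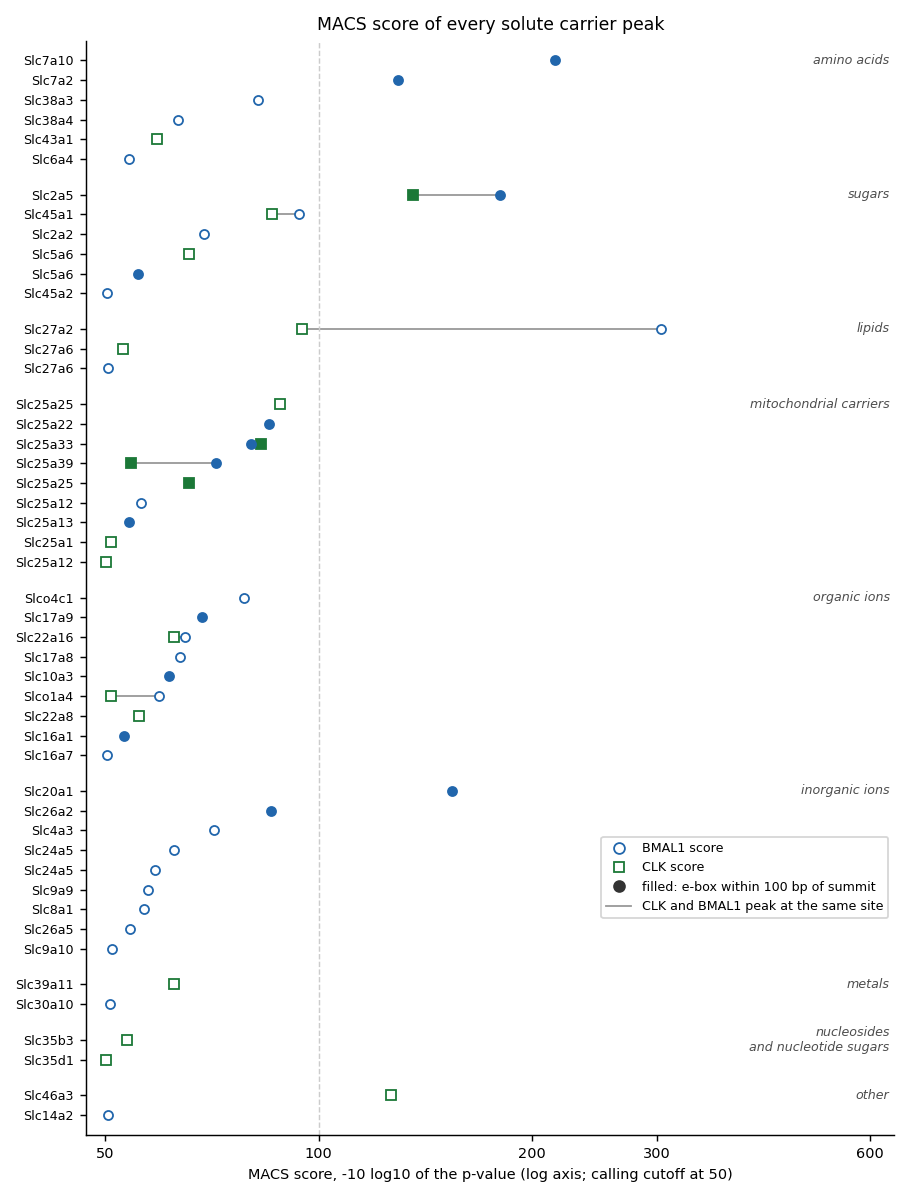
MACS score (log axis, cutoff at 50) of each of the 48 solute carrier peaks, grouped by cargo, with circles for BMAL1, squares for CLK, filled symbols where CACGTG lies within 100 bp of the summit and lines joining both scores of a shared site. Most scores lie between 50 and 100, Slc27a2 has the highest BMAL1 score, 304.59, and Slc2a5 the highest CLK score, 136.11.

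Slc27a2 encodes a fatty acid transport protein that is also an acyl-CoA synthetase for very long chain fatty acids, and is abundant in liver. Its BMAL1 peak was the strongest at any solute carrier gene by score, 304.59 (rank 26 of 1578), with 105 tags, a fold enrichment of 14.79 and an FDR of 0%. The CLK peak at the same place, chr2:126378363-126379021, had 67 tags, a score of 94.82 (rank 104 of 759), a fold enrichment of 5.95 and an FDR of 4.81%. Both summits, 3 bp apart, lay at the gene's start, where the peak centre was 67 bp upstream by the authors' table and the summit fell in the 5′ UTR of an annotated transcript. It was also the shared site at a start that lacked the canonical hexamer. No CACGTG was found within 1000 bp of the summit, and the window instead held 4 hexamers with 1 mismatch, 2 of them the CACGAG pair printed above. The window was 74.1% G and C, the highest share among the 48 peaks.

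Slc2a5, the fructose transporter, had the highest fold enrichment of the solute carrier peaks in both lists. The BMAL1 peak had 57 tags, a score of 180.66 (rank 80), a fold enrichment of 15.53 and an FDR of 0%. The CLK peak had 54 tags, a score of 136.11 (rank 46) and a fold enrichment of 11.16. Its FDR, 6.52%, was the highest among the 19 solute carrier peaks of the CLK list. The site, chr4:149506638-149507190, lay in an intron 13462 bp downstream of the start. Its 2 copies of CACGTG were 20 bp apart, and a CACATG stood between them, 7 bp from each, as the first printed sequence shows. The nearer copy was centred 9.5 bp from the CLK summit.

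The remaining 5 shared sites were weaker, with a highest CLK score of 85.91 and a highest BMAL1 score of 93.76. Slc45a1, a proton-linked sugar transporter, had a BMAL1 score of 93.76 (fold enrichment 5.09, 81 tags, FDR 0.75%). Its CLK score was 85.91 (5.80, 40 tags, FDR 5.3%). The peak, chr4:150058972-150059590, was between genes 32998 bp upstream of the start. Slc25a33, a mitochondrial carrier of pyrimidine nucleotides, had a CLK score of 82.89 (6.73, 34 tags, FDR 5.67%). Its BMAL1 score was 80.28 (10.02, 33 tags, FDR 0.57%). Its peak, chr4:149166242-149166707, lay 18099 bp upstream, with 1 e-box at 34.5 bp from the CLK summit.

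Slc25a39, the mitochondrial importer of glutathione, was the only other shared site near a start. Its peak, chr11:102269650-102270158, was centred 767 bp upstream, with a BMAL1 score of 71.65 (7.61, 33 tags, FDR 1.53%). The CLK score was 54.28 (7.14, 34 tags, FDR 4.94%), and the summits were 3 bp apart. The e-box printed above was followed after 5 bp by CAAGTG, a hexamer with 1 mismatch. Slc22a16, a carnitine transporter, had a BMAL1 score of 64.81 (8.71, 41 tags, FDR 3.89%) at chr10:40219562-40220005, 70384 bp upstream. Its CLK score was 62.60 (6.54, 39 tags, FDR 4.65%).

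Slco1a4, an organic anion transporter that takes up bile acids and drugs, had the weakest shared site. Its scores were 59.45 for BMAL1 (6.00, 22 tags, FDR 5.83%) and 50.99 for CLK (7.02, 21 tags, FDR 5.77%). The assignment of this peak to Slco1a4 was loose. The site, chr6:141723030-141723353, was 81501 bp from the Slco1a4 start on its 3′ side, and the nearest annotated coding start, 862 bp away, was that of Gm5724. Over the 7 shared sites the summits of both lists lay 3 to 53 bp apart, with a median of 19 bp, against 21 bp over all 211.

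Of the 7 shared sites, 3 were neighbours on chromosome 4. Slc25a33, Slc2a5 and Slc45a1, with Rere between the last pair, gave 4 of the 18 CLK:BMAL1 peaks of that chromosome within 893 kb of its 155.6 Mb. They were separate peaks by position, each with its own summit. This stretch was singled out after the values were seen.

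Among the peaks found in the BMAL1 list alone, Slc7a10 was the strongest. This gene encodes a transporter of small neutral amino acids, including D-serine. The peak, chr7:35954130-35954705, had 61 tags, a score of 215.83 (rank 52), a fold enrichment of 11.41 and an FDR of 0%, and lay between genes 17019 bp upstream of the start. Its e-box was 74.5 bp from the summit.

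Slc20a1, a sodium-coupled phosphate transporter, followed with a score of 154.38 (rank 108), 68 tags, a fold enrichment of 9.07 and an FDR of 0.93% at chr2:129023649-129024634, 394 bp upstream. Slc7a2, a transporter of arginine and other cationic amino acids, had 129.39 (rank 147), 46 tags, 8.03 and 0.68% at chr8:41947403-41948056, 10 bp from the start. Both carried 1 e-box, at 46.5 and 27.5 bp from the summit. No other BMAL1 only peak of a solute carrier gene scored above 85.80.

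The other BMAL1 only peaks with an e-box near a start were weaker but alike in layout. Slc26a2, a sulfate transporter, had a score of 85.80 (9.03, 33 tags, FDR 0.65%) at chr18:61370927-61371543, 15 bp from the start, with its summit in the 5′ UTR. Slc25a22, a mitochondrial glutamate carrier, had 85.16 (7.44, 42 tags, FDR 0.64%) at chr7:148622863-148623512, in an intron 330 bp downstream, and was with Slc2a5 one of the 2 genes with a pair of e-boxes in the window. Slc17a9, the vesicular nucleotide transporter, had 68.50 (7.03, 39 tags, FDR 2.82%) at chr2:180459660-180460357, 35 bp upstream, with the e-box 10.5 bp from the summit.

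Slc10a3, a member of the bile acid transporter family whose cargo is not established, had 61.48 (7.06, 25 tags, FDR 4.94%) at chrX:71618426-71618902, 69 bp upstream. Slc25a13, the liver aspartate/glutamate carrier that serves the urea cycle and the malate-aspartate shuttle, had 54.08 (5.01, 29 tags, FDR 8.39%) at chr6:6166965-6167569, 149 bp upstream. Slc16a1, the lactate and pyruvate transporter, had 53.09 (6.76, 17 tags, FDR 8.66%) at chr3:104442936-104443307, in an intron 532 bp downstream. These last scores stood close to the cutoff of 50, and these FDRs leave the peaks at Slc25a13 and Slc16a1 less certain than the others of this group.

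The peaks found in the CLK list alone were led by Slc46a3, a lysosomal transporter. Its peak, chr5:148723369-148723667, had 30 tags, a score of 126.64 (rank 54), a fold enrichment of 10.96 and an FDR of 5.56%, and lay between genes 17127 bp upstream, with no e-box within 1000 bp. Slc25a25, the mitochondrial carrier that exchanges ATP-magnesium for phosphate, had 2 CLK only peaks 2569 bp apart. The stronger, chr2:32278772-32279783, had 73 tags, a score of 88.37, an FDR of 4.92% and a low fold enrichment, 4.53. It was 27662 bp downstream by the table and 20 bp from the start of another annotated transcript. The weaker, chr2:32275750-32276202, had 35 tags, a score of 65.56, a fold enrichment of 5.91, an FDR of 5.06% and the e-box of the last printed line in its group, centred 9.5 bp from the summit. It was the single CLK only peak of a solute carrier gene with an e-box.

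At Slc5a6, the sodium-dependent transporter of biotin and pantothenate, a BMAL1 only and a CLK only peak lay side by side with 203 bp between them. The BMAL1 peak, chr5:31350145-31350537, had 18 tags, a score of 55.60, a fold enrichment of 6.76 and an FDR of 7.02%, and covered the printed e-box 16.5 bp from its summit. The CLK peak, chr5:31350741-31351191, had 25 tags, a score of 65.62, a fold enrichment of 9.53 and an FDR of 5.10%, and had no e-box in its window. The summits were 596 bp apart. Each was 18 bp from an annotated start of Slc5a6, and the CLK summit also fell in a non-coding exon of 0610007C21Rik. By overlap this gene holds no shared site, whereas peaks extended by 500 bp would join.

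The other genes with more than 1 peak showed no such proximity. Slc25a12, the second aspartate/glutamate carrier, had a BMAL1 only peak (chr2:71113125-71113513, score 56.23, fold enrichment 6.14, 18 tags, FDR 6.56%) in a coding exon and a CLK only peak (chr2:71121710-71122068, 50.04, 4.76, 19 tags, 6.38%) in an intron 8196 bp away, and neither had an e-box. Slc24a5, a cation exchanger of pigment cells, had 2 BMAL1 only peaks 70393 bp apart, with scores of 62.56 (chr2:124802004-124802551, 6.03, 25 tags, 4.05%) and 58.79 (chr2:124872945-124873704, 5.42, 33 tags, 5.89%), 91585 and 20538 bp upstream. Slc27a6, a fatty acid transport protein of the heart, had a CLK only peak (chr18:58648284-58648613, 52.94, 5.10, 19 tags, 5.10%) 67445 bp upstream and a BMAL1 only peak (chr18:58734683-58735071, 50.51, 7.99, 17 tags, 10.45%) in an intron. In these 3 genes no peak had a score above 62.56.

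The remaining BMAL1 only genes included transporters of known liver function without an e-box in the window. Slc38a3, a glutamine transporter of hepatocytes, had a score of 82.01 at 1458 bp upstream, and Slc38a4, a related amino acid transporter, 63.41. Slc2a2, the main glucose transporter of hepatocytes, had 68.96 with a fold enrichment of 5.28 in an intron. Its start was 3811 bp away by the table and 27293 bp by GENCODE. Slc30a10, a manganese exporter, had 50.81 at a site 166034 bp from its start.

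Others are best known from other tissues. Slco4c1, an organic anion transporter of the kidney, scored 78.37, Slc4a3, a chloride/bicarbonate exchanger, 71.28, and Slc17a8, a vesicular glutamate transporter, 63.77. Slc9a9, an endosomal sodium/proton exchanger, had 57.48, Slc8a1, the cardiac sodium/calcium exchanger, 56.67, Slc26a5, the motor protein of outer hair cells, 54.17, and Slc6a4, the serotonin transporter, 54.09. Slc9a10, a sodium/proton exchanger of sperm, had 51.05, the urea transporter Slc14a2 had 50.37, the monocarboxylate transporter Slc16a7 50.32 and the melanosomal Slc45a2 50.28. The peaks given to Slc4a3, Slc8a1 and Slc16a7 were 158405, 633402 and 994591 bp from their starts. That of Slc14a2 was inside the gene by the table, but between genes and 322790 bp from its start by GENCODE.

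The remaining CLK only genes scored at most 62.43. Slc39a11, a zinc transporter, had 62.43, Slc43a1, a transporter of large neutral amino acids, 59.22, and Slc22a8, an organic anion transporter of the kidney, 55.87. Slc35b3, which carries the sulfate donor PAPS into the Golgi, had 53.60 at 398272 bp from its start, Slc25a1, the mitochondrial citrate carrier, 50.97 and Slc35d1, a nucleotide sugar transporter, 50.13. None of these 6 had an e-box within 100 bp of the summit.

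The next question was where in the gene the peaks lay. Of the 48, 12 were within 1000 bp of the start of their gene (25%, 13.6 to 39.6), against 16.5% of all peaks. These 12 were on 11 genes, 6 upstream and 6 downstream of the start. By class they were 9 of 29 BMAL1 only peaks (31%, against 16.3% of all peaks of that class), 2 of 7 shared (28.6%, against 35.1%) and 1 of 12 CLK only peaks (8.33%, against 10.04%). The table put 23 peaks inside the gene (47.9%), against 42.3% of all. By GENCODE, 24 summits were between genes (50%, against 48.8% of all peaks) and 14 in introns (29.2%, against 39.0%). A 5′ UTR held 6 summits (12.5%, 4.73 to 25.2, against 4.18%). There were 2 in coding exons (4.17%, 0.51 to 14.3, against 4.75%) and 2 in exons of non-coding transcripts (4.17%, 0.51 to 14.3, against 2.02%). A 3′ UTR held 0 (interval 0 to 7.4, against 1.18%).

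The median distance to the start was 17613 bp, against 24938 bp over all peaks, and 12 peaks (25%) were farther than 50000 bp, against 35.5% of all. Besides the stronger Slc25a25 peak, Slc38a4 and Slc26a5 were far from the table's start but near another annotated one, at 108 bp in place of 24657 and 42 bp in place of 3691. For 41 of 48 peaks (85.4%) the nearest annotated protein-coding start belonged to the assigned gene, against 68.3% of all. These shares cannot be compared directly, because an assigned name that the annotation lacks can never match. All 43 solute carrier symbols were annotated, but only 1489 of the 1817 symbols over all peaks were annotated protein-coding genes.

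An e-box lay within 100 bp of the summit in 14 of 48 peaks (29.2%, 17 to 44.1), against 22.7% of all peaks. In the flanks from 400 to 500 bp it was found in 2 (4.17%), against 2.87% of all. By class, 3 of 7 shared (42.9%, against 59.2% of all shared peaks), 10 of 29 BMAL1 only (34.5%, against 22.0%) and 1 of 12 CLK only peaks (8.33%, against 10.4%) had one. Its centre was 9.5 to 91.5 bp from the summit, with a median of 19.0 bp, and in 12 of 14 peaks it was within 50 bp. With 1 mismatch allowed, a hexamer was found in 41 of 48 windows (85.4%, against 71.0% of all) and in 26 of 48 flanks (54.2%, against 44.1%).

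E-boxes were mostly at starts. Of the 12 peaks within 1000 bp of a start by the table, 10 had CACGTG (83.3%, 51.6 to 97.9), against 50.3% of all such peaks. Of the other 36 peaks 4 had it (11.1%, 3.11 to 26.1), against 17.2%. The 10 were at Slc25a39, Slc20a1, Slc7a2, Slc26a2, Slc25a22, Slc17a9, Slc10a3, Slc5a6, Slc25a13 and Slc16a1, and the 2 without were Slc27a2 and the CLK only peak of Slc5a6. The 4 distant ones were at Slc2a5, Slc25a33, Slc7a10 and Slc25a25. The 3 peaks near another annotated start, at Slc38a4, Slc26a5 and the stronger peak of Slc25a25, were counted among the 36 and had no e-box. By GENCODE starts 15 peaks were near a start, and 10 of these had the e-box. The 50.3% of all peaks was taken by the table's starts alone. The BMAL1 fold enrichment had a median of 7.61 in the 13 peaks with an e-box and 6.31 in the 23 without, and the ranges, 5.01 to 15.53 and 5.05 to 14.79, overlapped almost entirely.

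**Figure D3:**
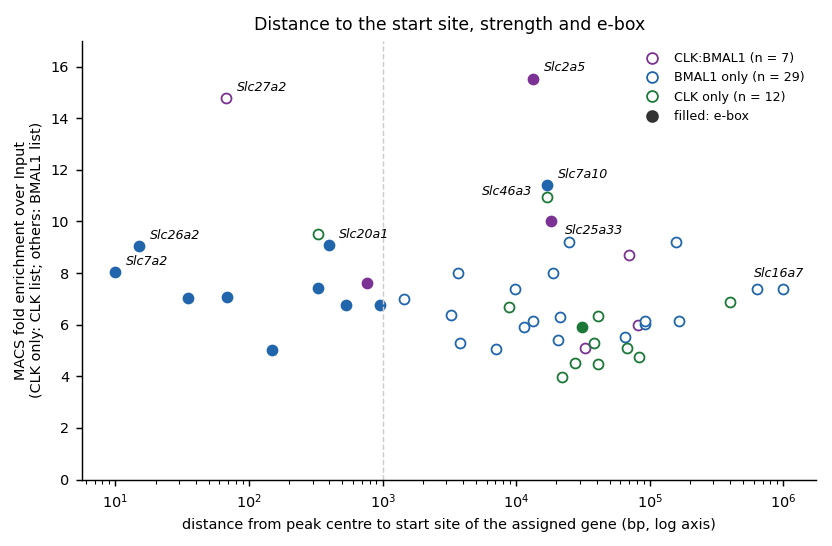
Fold enrichment over Input against distance from the peak centre to the start of the assigned gene by the authors' table (bp, log axis) for the 48 solute carrier peaks. Points are coloured by class and filled where an e-box lies within 100 bp of the summit, with a dashed line at 1000 bp. Left of the line 10 of 12 points are filled and right of it 4 of 36, and high and low folds occur on both sides.

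The windows at starts by the table also differed from the others in base composition. Their median share of G and C was 65.4%, against 52.7% in the other 36, which was near the 65.2% and 51.2% of all peaks. The GC box GGGCGG, the SP1 site, searched on both strands, was in 10 of the 12 windows at starts (83.3%, against 55.7% of all such windows) and in 3 of the other 36 (8.33%, against 6.42%). TGTTTAC, a core of FOXA sites, was in 2 of 48 windows, at Slc45a2 and Slc46a3 (4.17%, against 3.24%). TTATGTAA, a D-box, was in 1, at Slc25a33 (2.08%, against 1.88%). A match is a description of the letters and not a site.

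For comparison, CACGTG was in 7.15% of 32851 RefSeq promoters of 300 bases (GRCm38.p6) and in 11.8% of the 389 promoters of solute carrier genes. Of the 11 genes with a peak within 1000 bp of a start, 7 had an entry there, and 3 of these, Slc16a1, Slc20a1 and Slc25a13, held the hexamer in it.

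A list of 34 transporters known for their role in hepatocytes was also counted. Of these, 11 had a peak (32.4%), against 11.7% of annotated solute carrier genes and 6.7% of all protein-coding genes, namely 2 with a shared site (Slco1a4 and Slc27a2), 8 with a BMAL1 only peak (Slc2a2, Slc7a2, Slc38a3, Slc38a4, Slc16a1, Slc25a13, Slc30a10 and Slc20a1) and 1 with CLK only peaks (Slc25a25). The list was written with earlier results of these data known, so the share is no evidence for the list as a whole. The 6.7% also does not count genes listed under names that the annotation lacks. The main bile acid and organic anion uptake transporters of the hepatocyte, Slc10a1 and Slco1b2, were among the 23 without an assigned peak.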

How the data were processed

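CLK, BMAL1 and Input ChIP-seq libraries of mouse liver at ZT8 were analysed, 1 per group. The authors mapped 36 nt reads to mm9 with Bowtie (base calls with CASAVA 1.6 per the submitters' notes), kept uniquely mapped reads, and called peaks with MACS (version not given in the sources used here) for each antibody against the Input, at a p-value cutoff of 1e-05. The deposited values are a count of tags per peak, a score (10 times the negative log10 of the p-value), a fold enrichment (the ratio to the local Input background) and an FDR in percent. A deposited table gives class, assigned gene and distance to the start site. Inside a gene a peak was given that gene, otherwise the nearest start. The table's shared peaks hold the CLK position, and BMAL1 values were joined by an overlap of at least 1 bp. Depth after removal of duplicate positions was 33057959 (CLK), 25217144 (BMAL1) and 18206506 (Input) tags.

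From these files, medians, shares and exact (Clopper-Pearson) 95% intervals were computed with Python 3.11.15, pandas 2.3.3, scipy 1.17.1 and pysam 0.24.0. The hexamer search was tested on simulated sequences and the interval code against a known value, and the other steps were not tested this way. Windows were set around the CLK summit where the CLK list holds the peak and around the BMAL1 summit otherwise. Sequences came from NCBIM37 and features and starts from GENCODE M1, which held all 43 symbols. The sign of the distance was set by gene strand. No test between groups was possible. Members and lists were chosen with earlier results of these data known. Full values are given for shared peaks, scores of at least 100, e-boxes within 1000 bp of a start, genes with at least 2 peaks and the 3 CLK only peaks of highest score. Other values named were chosen after they were seen. Alternatives changed the score, FDR, window, mismatch, overlap, distance and gene assignment.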

Additional observations from a re-analysis of the deposited data

How the results depend on the processing

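Of 23 alternative values of 6 results, 16 stayed within the interval of the reported value (or, for the count of genes, within 1.5 times) and 7 moved. The share of peaks with an e-box was 85.4% with 1 mismatch allowed and 80% (4 of 5) with a score of at least 100. With that score minimum, 40.0% of peaks (2 of 5) were near a start, the median fold enrichment was 11.4 in the BMAL1 list (5 peaks) and 11.1 in the CLK list (2 peaks), and 5 genes remained. For shared peaks this minimum applied to the CLK score in the shares and the gene count, which left out Slc27a2, and to each list's own score in the medians. Selecting on the score selects on a measure tied to fold enrichment. With an FDR of at most 5%, 19 genes remained. For shared peaks this count used the CLK FDR. It left out Slc2a5, Slc45a1 and Slc25a33, whose BMAL1 FDRs were 0%, 0.75% and 0.57%. The share of shared peaks stayed between 9.09% and 20% under its 4 alternatives. No paired analysis was possible because each group has 1 library. Without replicates, the spread between animals is unknown, and peaks of 15 to 25 tags near the cutoff, such as those at Slc16a1, Slc5a6 and Slco1a4, are limited by depth.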
